A study of Homo sapiens with 24 samples.

Results

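The cytosolic ribosome of human cells is built from the proteins described here, those whose gene symbols are RPL or RPS followed by a number (with A, L or X after it in some) or RPLP0, RPLP1, RPLP2 and RPSA. The platform annotation gave 117 probe sets with a single such symbol, and they belonged to 56 genes of the 19775 with a single-symbol probe set, 21 of the small subunit (RPS) and 35 of the large subunit (RPL and RPLP). RPLP0 and RPSA had no single-symbol probe set and are not among the 56. Each gene was read through its brightest probe set over all arrays, and kinases such as RPS6KB1 were not counted. A further 15 ribosomal protein symbols, RPL5, RPL4, RPL10 and RPS2 among them, stand only on probe sets that name several genes, and these genes were not analysed here.

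The measurements were made on 24 Affymetrix expression arrays in 8 groups of 3 cultures, all grown in high glucose medium with uridine and pyruvate. HEK293 cells, a human embryonic kidney line, carried a doxycycline-inducible dominant-negative form of the mitochondrial DNA polymerase POLG (DN-POLG) and were collected un-induced at day 0 and after 3, 6 and 9 days of doxycycline, which depletes mitochondrial DNA (mtDNA). The same cells that also expressed ectopic NDI1 and AOX, a yeast NADH dehydrogenase and an alternative oxidase that together bypass parts of the respiratory chain, were collected at day 9 and at day 0 (NDI1/AOX). The remaining cells were 143B osteosarcoma cells without mtDNA after chronic ethidium bromide (rho0) and their parental line (rho+). Each model is 1 derived line, so in 143B the loss of mtDNA cannot be told apart from other differences between the lines. In the HEK293 models no un-induced culture was measured after day 0. There the loss of mtDNA cannot be told apart from doxycycline, the induced transgene or days in culture. The p-values measure the spread between cultures.

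A ribosome holds a single copy of most of these proteins, and cells keep their synthesis in step with one another and with ribosomal RNA. Most human ribosomal protein mRNAs begin with a 5′ terminal oligopyrimidine (TOP) tract, a C at the first base followed by a run of C and T, through which the kinase mTORC1 controls how well they are translated when nutrients or energy fall short. That control acts on translation, and the arrays measure the amount of mRNA only. Incomplete ribosome assembly frees the 5S particle proteins RPL5 and RPL11 to bind MDM2, a route by which p53 is known to be stabilised.

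The TOP tract was looked for in the promoter sequences of RefSeq (build GRCh38.p14), which held 48 of the 56 genes. It was counted for a gene where any of its annotated starts was a C followed by at least 4 pyrimidines on the gene's strand. By this rule 34 of the 48 genes (70.8%) had a tract, 14 of 20 of the small and 20 of 28 of the large subunit. The share was 5.1% of 27305 genes in all, and 6 of 68 mitochondrial ribosomal protein genes (8.8%) had a tract. Within the family the median tract was 7 bases and the longest 19, in RPL39. The motif CCGGAA was read on either strand in the 250 bases before any annotated start. It stood in 24 of the 48 genes (50%), in 17.2% of all genes and in 34 of 68 mitochondrial ribosomal protein genes (50%). A match or its absence describes these letters at the annotated starts and says nothing of the factors that bind there. The windows below are shown for the genes on which the later values turn, 10 bases before the start and 20 from it, with the tract in capitals.
RPS6, chr9:19380217-19380246, minus strand: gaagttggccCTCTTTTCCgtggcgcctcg
RPS14, chr5:150449720-150449749, minus strand: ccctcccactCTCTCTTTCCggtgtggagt
RPS19, chr19:41860245-41860274, plus strand: ccccgtcgttCCCTTTCCCCTggctggcag
RPL37A, chr2:216498834-216498863, plus strand: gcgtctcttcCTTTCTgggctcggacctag
RPLP2, chr11:809957-809986, plus strand: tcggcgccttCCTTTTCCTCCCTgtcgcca
RPL27A, chr11:8682782-8682811, plus strand: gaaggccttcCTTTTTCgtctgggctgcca
RPL39, chrX:119791611-119791640, minus strand: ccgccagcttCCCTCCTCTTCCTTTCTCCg
RPS27, chr1:153990752-153990781, plus strand: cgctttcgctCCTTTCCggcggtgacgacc
RPS27L, chr15:63157458-63157487, minus strand: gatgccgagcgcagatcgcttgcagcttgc
RPL10L, chr14:46651762-46651791, minus strand: gtagttaagagagcgcattttgacttcgag
The paralogs RPS27L and RPL10L had no tract at the annotated start, while RPS27 had 7 bases and RPL39, at 19 bases, the longest run of the family.

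The induced gene was read first. On its probe set 217635_s_at, POLG had a signal of 307, 421 and 280 at day 0 of DN-POLG cells, 2899, 3755 and 2930 at day 3, 3773, 3719 and 4570 at day 6, and 2834, 4739 and 4268 at day 9. The NDI1/AOX cells had 4035, 2468 and 447 at day 9, against 274, 197 and 266 at day 0, so replicate 3 of day 9 stood apart from its group. The main results for NDI1/AOX cells are therefore also given without that array. Where it is called the array with little POLG below, the reading of 217635_s_at is meant. On another POLG probe set, 203366_at, it had 963, beside 1327 and 1033 in replicates 1 and 2. That probe set overlapped between DN-POLG day 0 (643 to 1295) and day 9 (1019 to 1298). The ratio of the 3′ to the 5′ control probe set of ACTB, a measure of RNA integrity and labelling, was 8.92 in replicate 1 of DN-POLG day 6 and 1.05 to 1.81 in the other HEK293 arrays, 5.53 to 8.12 in rho0 cells and 10.4 to 17.1 in rho+ cells. Of 9 HEK293 markers 4 were higher in HEK293 than in 143B cells with no overlap of arrays and 1, CDH2, was lower. Of 11 mesenchymal markers 5 were higher in 143B cells with no overlap and 0 in HEK293 cells.

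Ribosomal protein genes were among the brightest of all. In every HEK293 array 50 of the 56 genes lay in the brightest 2% of probe sets, and in 143B arrays 42 to 49 did, and their summed signal made up 3.20% to 5.20% of an HEK293 array and 1.64% to 2.12% of a 143B array. The brightest 3 were RPS23, which lies close to the decoding centre, RPS16, and RPL39, which lines the exit tunnel. RPS23 had a signal of 40836, 60288 and 42690 at DN-POLG day 0, 38183, 64740 and 34436 at day 3, 69059, 58503 and 35592 at day 6, and 71296, 47819 and 56595 at day 9. The replicates of 1 day thus differed by more than the days did, and all 4 days overlapped. The dimmest 3 were RPL3L, the heart and muscle paralog of RPL3, whose signal stayed at 22 or below, RPL36A, and RPL10L, the autosomal copy of RPL10 used in the testis. RPL3L lay below the signal filter in both lines and RPL36A in 143B, which left 55 genes tested in HEK293 and 54 in 143B cells.

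The family moved as a block from array to array. At day 0 of DN-POLG cells the median log2 signal of its genes was 14.87, 15.47 and 14.94 in replicates 1, 2 and 3, at day 3 14.81, 15.47 and 14.71, at day 6 15.68, 15.29 and 14.78, and at day 9 15.62, 15.07 and 15.36. Cultures of 1 day therefore lay further apart than the means of the days did. NDI1/AOX cells were tighter, with 15.16, 15.25 and 15.13 at day 9 and 14.92, 14.88 and 14.72 at day 0. The median SD of a gene between DN-POLG cultures was 0.32 at day 0, 0.43 at day 3, 0.47 at day 6 and 0.28 at day 9, and after subtraction of each array's family median it was 0.095, 0.083, 0.089 and 0.058 on the same days. As a description, the deviations of 54 of the genes from their group means had a median pairwise correlation of 0.96 over the 18 HEK293 arrays, whose genes share the scaling of each array, and 66.0% of the pairs reached 0.9. RPL10L (median correlation with the others -0.34), RPL39L (-0.21), RPS27L (0.47), RPLP2 (0.49), RPS25 (0.55) and RPL27A (0.61) followed the block least.

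**Figure D1:**
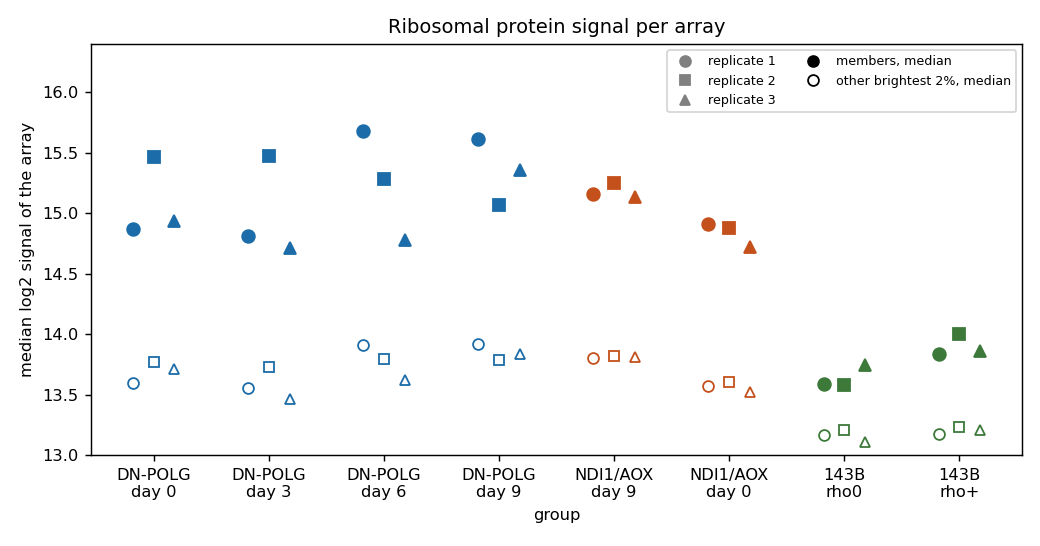
Median log2 signal of the ribosomal protein genes (filled) and of the other probe sets in the brightest 2% (open) in each of the 24 arrays, by group, with a shape for each replicate. Cultures of 1 DN-POLG day lay as far apart as the days, NDI1/AOX day 9 (15.13 to 15.25) lay above its day 0 (14.72 to 14.92), and 143B rho0 (13.58 to 13.75) lay below rho+ (13.83 to 14.01).

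No ribosomal protein gene passed the test during induction of DN-POLG. At day 3, 0 of 55 passed in limma at an adjusted p below 0.05 (background 0% higher and 0% lower over all 12085 genes' brightest probe sets), at day 6 0 of 55 (0.207% higher and 1% lower) and at day 9 0 of 55 (1.3% higher and 6.4% lower). At an unadjusted p below 0.05 there were 0, 0 and 3, all 3 higher, and an analysis of variance without moderation also called 0 on each day. The 95% interval of the change lay within 1 on the log2 scale, a fold of 2, for 52 of the 55 genes on each of the 3 days, with a median half-width of 0.576. For most of these genes the reading of the brightest probe set was thus bound to less than a 2-fold change, and smaller changes were not resolved. These readings lie near the top of the signal range. In DN-POLG day 0 replicate 1 the family median was 29926 and the highest signal of the array 43500. Whether changes in mRNA are read in full at such signals was not tested.

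The median log2 fold change of the family was -0.11 at day 3 (4 genes positive, 51 negative), 0.14 at day 6 (53 positive, 2 negative) and 0.23 at day 9 (54 positive, 1 negative), beside medians over all genes of 0.06, -0.01 and 0.01. These signs rested on single arrays: without day 0 replicate 2 or day 3 replicate 3 the day 3 median was 0.07 or 0.04, and without day 6 replicate 1, the array with the ACTB ratio of 8.92, the day 6 median was -0.07. At day 9 it stayed between 0.12 and 0.44 with each array left out. Other probe sets of the brightest 2% had medians of -0.10, 0.06 and 0.19 on the 3 days. Quantile normalization, which gives all arrays the same distribution, put the family at 0.02, 0.05 and 0.06.

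The family's summed signal was 1727100 ± 555199 signal units at day 3, 2066820 ± 629216 at day 6 and 2171000 ± 432380 at day 9, against 1852710 ± 445572 at day 0 (SD, n = 3 each). No difference from day 0 passed (two-sided exact permutation test, p = 0.5, 0.7 and 0.5, or 0.625, 0.7 and 0.625 adjusted over 5 comparisons, where 0.1 is the smallest possible). By subunit the day 9 medians were 0.22 for the small and 0.24 for the large subunit, and 0.26 for the 34 genes with a TOP tract beside 0.23 for the 14 without. In bulk RNA fewer cells that express a gene and less of its RNA per cell cannot be told apart.

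At day 9 RPL10L, RPS9 and RPL30 had the largest positive differences. RPL10L had signals of 159, 348 and 349 at day 9, against 142, 83.8 and 170 at day 0, a log2 fold change of 1.09 (SE 0.48, adjusted p = 0.205 in limma) with overlapping groups. RPS9, a small subunit protein of the ribosome body, had 37980, 26980 and 30348 at day 9, against 19917, 22240 and 25661 at day 0, a log2 fold change of 0.48 (SE 0.22, adjusted p = 0.209 in limma). RPL30, a large subunit protein, had 45923, 35925 and 39581 at day 9, against 26005, 33761 and 30048 at day 0, a log2 fold change of 0.44 (SE 0.19, adjusted p = 0.185 in limma). The arrays of RPS9 and RPL30 did not overlap between the days, nor did those of RPS25 and RPS27L, which made 4 genes higher without overlap of 55 (background 9.16%). The lowest changes at day 9 were those of RPL36A (-0.07) and RPL32 (0.07). At day 3 they were RPL36A (-0.39) and RPL32 (-0.28), with RPLP2 (0.16) and RPL27A (0.07) the highest, and at day 6 RPL39L (-0.05) and RPL32 (-0.01), with RPL10L (0.90) and RPL27A (0.42) the highest. No gene's arrays were apart from day 0 at day 3 or day 6 (background 3.8% higher and 1.5% lower at day 3, 4.03% and 7.95% at day 6).

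The parts of the ribosome had medians close to one another. In the P stalk, which recruits the GTPase translation factors, RPLP1, RPLP2 and RPL12 had day 9 medians of 0.30 as a group, with RPLP1 at 0.21 and RPL12 at 0.33. RPL11, of the 5S particle, had log2 fold changes of -0.14, 0.02 and 0.16 at days 3, 6 and 9, and RPL39 of the exit tunnel -0.14, 0.14 and 0.17. Around the mRNA channel and the head of the small subunit, RPS3 had 0.21 at day 9, RPS15 0.15, RPS14 0.20, RPS23 0.29 and RPS25, which several viral internal ribosome entry sites need, 0.38. RPS6, the substrate of the S6 kinases, had signals of 60465, 40463 and 47334 at day 9, against 37015, 51963 and 39237 at day 0, a log2 fold change of 0.21 with overlapping groups. Of the genes mutated in Diamond-Blackfan anaemia, a disease of too few ribosomal proteins, 0 of 8 small subunit and 0 of 6 large subunit genes passed at day 9, with medians of 0.23 and 0.26.

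**Figure D2:**
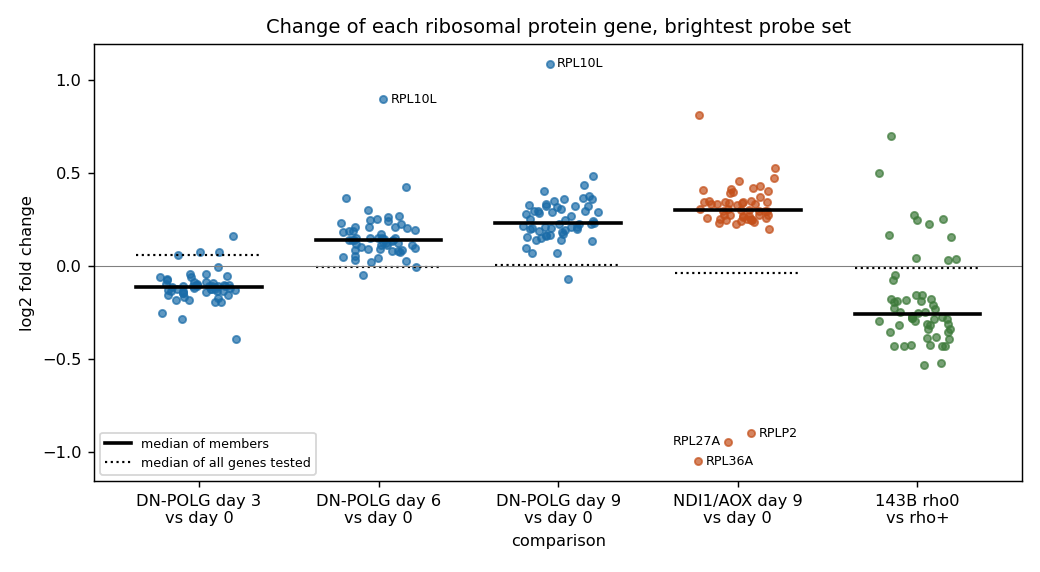
Log2 fold change of each ribosomal protein gene (points, brightest probe set) in 5 comparisons, with the median of these genes (solid bar) and of all genes tested (dotted bar). The medians were -0.11, 0.14 and 0.23 at DN-POLG days 3, 6 and 9, 0.30 in NDI1/AOX cells at day 9 and -0.26 in 143B rho0 cells, and no gene passed in limma.

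In NDI1/AOX cells the same direction was seen at day 9 with less spread, and again no gene passed. Of 55 genes 0 passed in limma (background 1.56% higher and 10.1% lower), with 1 higher and 3 lower at an unadjusted p below 0.05 and 1 called, RPS27L, by an analysis of variance without moderation. The smallest adjusted p was 0.10 in limma, for RPL27A. The median log2 fold change was 0.30 with 52 genes positive and 3 negative, beside -0.04 over all genes and 0.27 over other probe sets of the brightest 2% (0.998% of them called higher), and it was 0.33 without replicate 3 of day 9. In 48 genes all 3 day 9 arrays lay above all 3 day 0 arrays (background 24.6%), in 1, RPL36A, all lay below (background 29.6%), and in the rest they overlapped. Without replicate 3 of day 9 it was 49 higher (background 29.5%) and 1 lower (background 33.3%). Under quantile normalization the median was 0.02. The number of calls depended on how the spread was estimated: with only the 6 arrays of this comparison, 13 genes rose and 1 fell at an adjusted p below 0.05 in limma, where 12.4% of all genes were called higher and 20.9% lower, and with array weights 12 rose and 3 fell, where 17.2% and 25.5% were.

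RPS23 shows the usual pattern of the family, with signals of 48195, 47690 and 46235 at day 9, against 41666, 41583 and 36858 at day 0. RPS27L, a paralog of RPS27 known as a p53 target, had 13421, 13698 and 14768 at day 9, against 10745, 10286 and 10635 at day 0, a log2 fold change of 0.40 (adjusted p = 0.149 in limma). Both genes were higher in every day 9 culture, by less than a fold of 2. RPL10L (0.81) and RPL36 (0.53), a large subunit protein, had the largest positive log2 fold changes (adjusted p = 0.314 and 0.236 in limma). The summed signal reached 1880730 ± 89080 at day 9, against 1515420 ± 105352 at day 0 (SD, n = 3 each), a ratio of 1.24 that reached the smallest possible p of 0.1 in the exact permutation test (0.25 adjusted over 5 comparisons), and the ratio was 1.26 without replicate 3 of day 9. As a share of the array signal it was 3.99% ± 0.149 at day 9 and 3.47% ± 0.189 at day 0. The ACTB ratio was 1.27 to 1.52 at day 9 and 1.14 to 1.18 at day 0, and its part in the result was not tested.

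The day 9 responses of the 2 HEK293 models were compared with an interaction term. In limma 0 of 55 genes passed (background 0% in both directions), with 2 lower at an unadjusted p below 0.05, RPL27A (-1.24) and RPLP2 (-1.19), and the largest positive differences at RPL32 (0.26) and RPL11 (0.25). The median difference, NDI1/AOX minus DN-POLG, was 0.06, with a median half-width of the 95% interval of 0.814. Its sign rested on single arrays, as it was -0.13 without DN-POLG day 0 replicate 2, -0.07 without DN-POLG day 9 replicate 2 and 0.21 without DN-POLG day 9 replicate 1, and it was 0.10 without NDI1/AOX day 9 replicate 3 and -0.03 under quantile normalization. A difference between the models of less than that was not resolved. Between the models themselves, NDI1/AOX against DN-POLG, 0 of 55 genes passed in limma at day 0 (median -0.26, background 0.00827% higher and 0% lower) and 0 at day 9 (median -0.20, the same background). The day 0 median was -0.07 without DN-POLG day 0 replicate 2 and -1.50e-04 under quantile normalization, and the day 9 median was -0.05 without DN-POLG day 9 replicate 1, -0.18 without NDI1/AOX day 9 replicate 3 and -0.04 under quantile normalization. At day 0 the lowest were RPL32 (-0.49) and RPL37A (-0.37) and the highest RPL36A (0.28) and RPS25 (0.04), and 10 genes were lower without overlap (background 6.86%).

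RPLP2 and RPL27A were exceptions among the brightest probe sets in NDI1/AOX cells, and each shows how much depends on the probe set. RPLP2, an acidic protein of the P stalk, was read by 200908_s_at, its brightest probe set with a single symbol, which was dim in HEK293 cells. It had signals of 138, 311 and 121 at day 9 of NDI1/AOX cells, against 321, 339 and 307 at day 0, a log2 fold change of -0.90 (SE 0.35, adjusted p = 0.112 in limma). RPL27A, a large subunit protein, had 685, 2107 and 927 on 212044_s_at at day 9, against 2114, 1932 and 2337 at day 0, a log2 fold change of -0.94 (SE 0.36, adjusted p = 0.10 in limma). For both genes replicate 2 of day 9 stood close to the day 0 arrays and replicates 1 and 3 below them. A dimmer probe set of RPL14, 219138_at, showed the same split of replicates. It had 377, 1235 and 405 at day 9, against 1085, 998 and 1080 at day 0, and 7276 to 9713 in 143B cells.

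Replicate 2 decided the calls of RPLP2 and RPL27A. Without it RPL27A fell by 1.41 (adjusted p = 0.0116) and RPLP2 by 1.32 (adjusted p = 0.0191), both in limma, while without replicate 3, the array with little POLG, the changes were -0.82 and -0.64 (adjusted p = 0.272 and 0.372 in limma). At day 9 NDI1/AOX against DN-POLG cells differed by -1.57 for RPL27A (SE 0.36, unadjusted p = 4.66e-04, adjusted p = 0.357 in limma) and by -1.31 for RPLP2 (adjusted p = 0.511 in limma). These were the only 2 genes lower without overlap there (background 6.66%), and without NDI1/AOX day 9 replicate 3 there were 4 (background 11%). In DN-POLG cells RPLP2 had 395, 463 and 429 at day 9, against 303, 505 and 277 at day 0, which overlapped.

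The other probe sets of these genes gave another picture. A second single-symbol probe set of RPLP2, 217670_at, was dimmer still, with 33.0, 91.4 and 52.3 at day 9 of NDI1/AOX cells, against 68.2, 72.0 and 59.9 at day 0, which overlapped. RPLP2 is also read by 200909_s_at, which names the small nucleolar RNA gene SNORA52 as well, and there the signal was 43548 to 50592 at day 9 of NDI1/AOX cells, against 35178 to 39604 at day 0, a log2 difference of 0.31. RPL27A is also read by 203034_s_at, shared with SNORA3A, with 45185 to 48602 at day 9, against 35639 to 39923 at day 0, a log2 difference of 0.29. Another, dim RPL27A probe set, 223707_at, also shared with SNORA3A, differed by -0.22 with overlapping groups. The bright probe sets differed in the direction of the family, while 200908_s_at and 212044_s_at differed the other way on the same arrays. RPL36A, a large subunit protein near the exit site, had the same split: its dim probe set 243201_at had 32.7, 56.5 and 33.1 at day 9, against 59.2, 107 and 85.2 at day 0 (log2 fold change -1.05, SE 0.43, adjusted p = 0.134 in limma), and the bright 201406_at, which also names the read-through gene RPL36A-HNRNPH2, differed by 0.36. Which transcripts each probe set binds was not examined here, so these values are readings of probe sets and not of the whole mRNA.

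**Figure D3:**
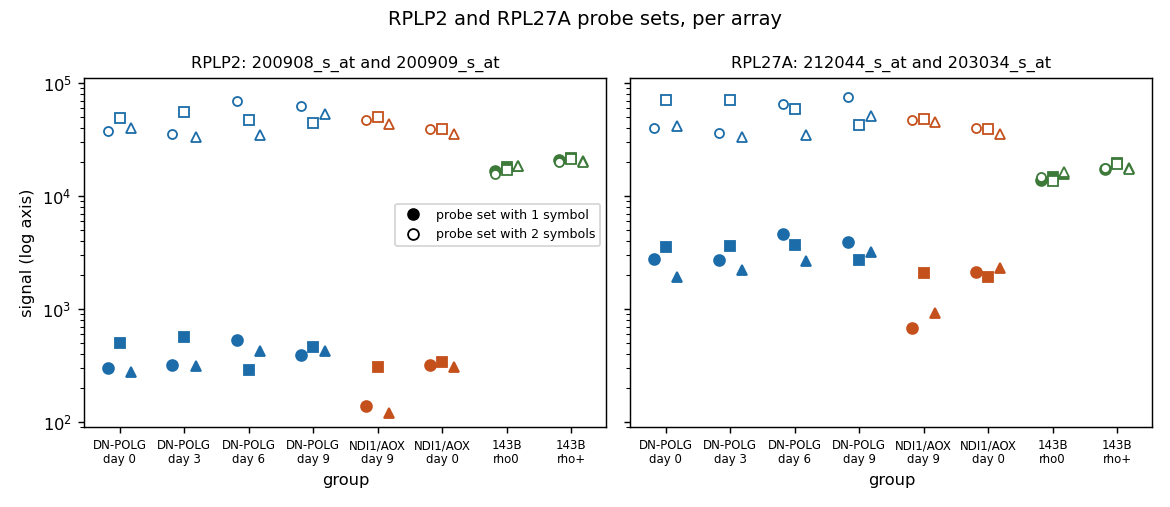
Signal per array (log axis) of the brightest single-symbol probe set (filled) and of the probe set shared with a small nucleolar RNA gene (open) for RPLP2 and RPL27A in the 8 groups. The single-symbol probe set of RPLP2 reads 121 to 311 in NDI1/AOX day 9 and 307 to 339 in day 0 but 16565 to 21826 in 143B cells, while the shared one is bright in all groups.

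The clearest changes in the family were on dimmer probe sets of the same genes. Of 52 probe sets of 29 ribosomal protein genes that were not the brightest of their gene and passed the signal filter, 8 (of 7 genes) were higher at day 9 of DN-POLG cells and 7 (of 6 genes) at day 9 of NDI1/AOX cells in limma, and 0 were lower in either. The background for such dimmer probe sets of all genes was 3.42% higher and 5.71% lower in DN-POLG cells, beside 3.46% higher and 8.48% lower in NDI1/AOX cells. The 6 called in both models belonged to RPS19, RPS15A, RPS14 (a pair of probe sets), RPL37A and RPL31, and the 2 comparisons share no array but share the estimate of the spread. RPS24 and RPL7 were called in DN-POLG cells and RPL18 in NDI1/AOX cells. At days 3 and 6 and in the interaction 0 passed (background 0.453% higher and 1.1% lower at day 6). These probe sets were picked out after their values were seen.

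RPS19, a small subunit protein needed to mature the 18S rRNA, had on 242451_x_at signals of 219, 186 and 204 at DN-POLG day 0, 173, 194 and 202 at day 3, 319, 265 and 251 at day 6, and 670, 598 and 975 at day 9. The log2 fold change was 0.45 at day 6 (adjusted p = 0.344 in limma) and 1.85 at day 9 (SE 0.23, adjusted p = 1.93e-04 in limma). In NDI1/AOX cells it had 701, 866 and 519 at day 9, against 216, 228 and 174 at day 0 (log2 fold change 1.73, adjusted p = 2.48e-04 in limma). The brightest RPS19 probe set, 202649_x_at, stood between 33827 and 69571 in HEK293 cells and overlapped between days 9 and 0 of DN-POLG cells. In NDI1/AOX cells it had 47318, 49578 and 44078 at day 9, against 40722, 40333 and 33827 at day 0. These did not overlap, but the difference was much smaller.

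RPS15A, a small subunit protein, had on 229882_at 197, 279 and 251 at DN-POLG day 0, 184, 173 and 123 at day 3, 325, 258 and 196 at day 6, and 904, 731 and 1995 at day 9 (log2 fold change at day 9 2.19, SE 0.40, adjusted p = 0.00280 in limma). The NDI1/AOX cells had 752, 1815 and 605 at day 9, against 185, 224 and 162 at day 0 (2.31, adjusted p = 0.00151 in limma). At day 6 the RPS19 probe set already lay a little above all day 0 arrays, while that of RPS15A overlapped day 0. Both probe sets were higher still in all 6 day 9 cultures, among them NDI1/AOX replicate 3, the array with little POLG. They were also called under all 15 and all 16 other settings in which they were tested, in both models. Another RPS15A probe set, 235309_at, went the other way, with 874, 639 and 1088 at day 9 of DN-POLG cells, against 1359, 2325 and 921 at day 0.

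RPS14, of the small subunit platform and lost in the 5q- syndrome, rose on 2 probe sets. On 214245_at it had 376, 399 and 674 at DN-POLG day 9, against 88.4, 136 and 178 at day 0 (1.85, SE 0.36, adjusted p = 0.00469 in limma), and on 241241_at the log2 fold change was 1.59 (adjusted p = 0.00765 in limma). Both rose in NDI1/AOX cells, by 1.70 and 1.93 (adjusted p = 0.00591 and 0.00163 in limma). RPL37A, a zinc-binding large subunit protein, had on 213459_at 1620, 1925 and 2696 at DN-POLG day 9, against 514, 271 and 356 at day 0 (2.47, SE 0.35, adjusted p = 5.51e-04 in limma). In NDI1/AOX cells it had 1197, 2194 and 958 at day 9, against 498, 662 and 505 at day 0 (1.31, adjusted p = 0.0227 in limma), and the difference between the models of -1.16 did not pass (adjusted p = 0.999 in limma). Day 9 and day 0 did not overlap for any of these probe sets. In DN-POLG cells RPS14 lost its call on both probe sets with only the arrays compared and on 241241_at with arrays set to one family median, and in NDI1/AOX cells RPL37A lost it with that scaling, with no signal filter and without day 0 replicate 1, day 0 replicate 3 or day 9 replicate 2.

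RPL31, which sits at the rim of the exit tunnel, was less firm: on 221593_s_at it had 1483, 2350 and 3853 at DN-POLG day 9, against 897, 441 and 1495 at day 0, with overlap (1.50, SE 0.42, adjusted p = 0.0359 in limma), and it kept its call in 8 of 16 other settings in each model. RPL7, which binds 28S rRNA, had on 239493_at 226, 287 and 808 at DN-POLG day 9, against 88.5, 76.1 and 14.0 at day 0 (3.04, SE 0.89, adjusted p = 0.0449 in limma) and was called in 7 of 16 settings. RPS24, needed to process 18S rRNA, had on 1555878_at a log2 fold change of 1.58 in DN-POLG cells (adjusted p = 0.00321 in limma) and 0.82 in NDI1/AOX cells (adjusted p = 0.0805 in limma), and its DN-POLG call was lost with one family median and with only the arrays compared. RPL18 had on 214335_at 1.75 in NDI1/AOX cells (adjusted p = 0.00222 in limma) and 0.97 in DN-POLG cells (adjusted p = 0.0741 in limma). For the last pair the difference between models was not called either.

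All 7 calls in NDI1/AOX cells held without replicate 3 of day 9, and all 15 without replicate 1 of DN-POLG day 6. The same probe sets gave 0 calls in 143B cells, where 1.84% of such dimmer probe sets of all genes were higher and 5.34% lower. On 242451_x_at RPS19 had 888, 778 and 329 in rho0 cells, against 750, 331 and 250 in rho+ cells (0.62, adjusted p = 0.457 in limma). RPS15A differed by 0.62 on 229882_at in 143B cells (adjusted p = 0.241 in limma). There the only dimmer probe set called was 235309_at of RPS15A, lower in rho0 cells with 1335, 1356 and 1788, against 2983, 3441 and 3056 in rho+ cells (-1.09, SE 0.24, adjusted p = 0.0330 in limma, background 5.34%). Where on the transcripts these probe sets lie is not given in the sources used here. Ribosomal proteins have many processed pseudogenes, and probe sets with the endings x or s can bind more than 1 transcript.

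**Figure D4:**
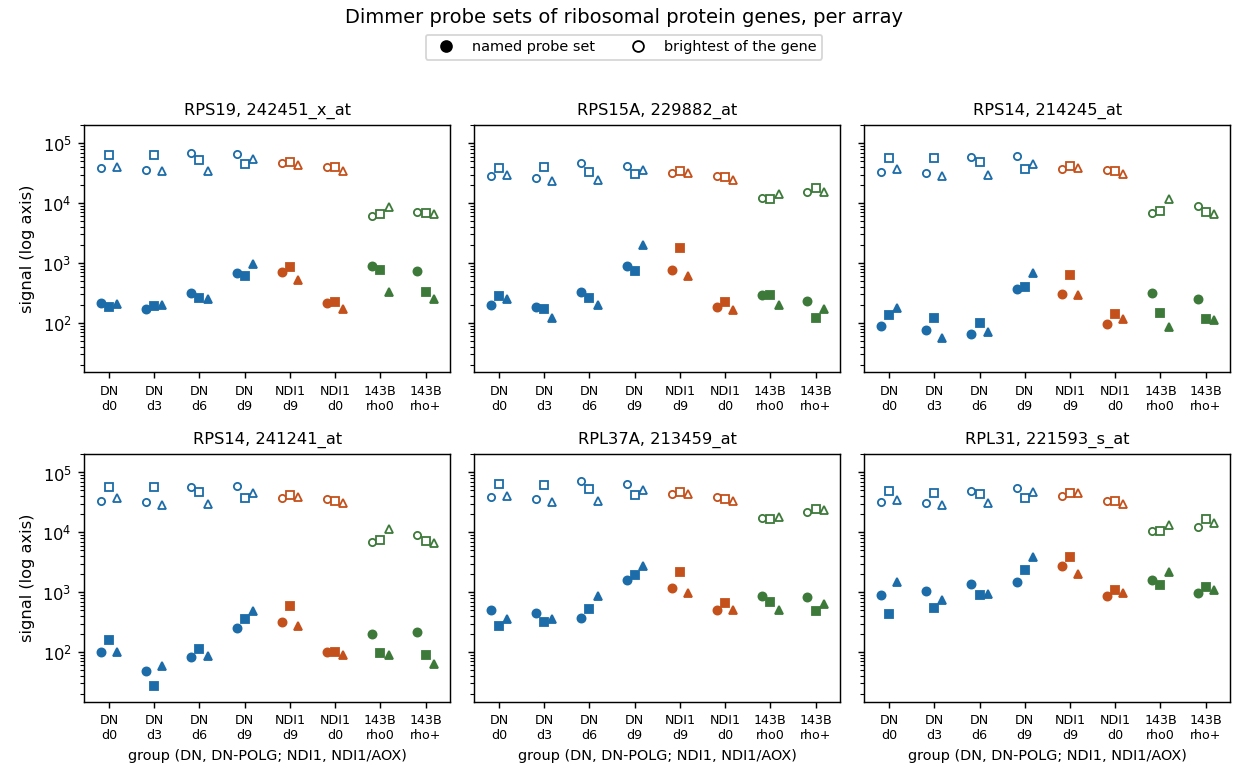
Signal per array (log axis) of 6 dimmer probe sets (filled) and of the brightest probe set of the same gene (open) in the 8 groups, a shape for each replicate. The dimmer probe sets of RPS19, RPS15A, RPS14 and RPL37A lie higher in all day 9 arrays of both HEK293 models than at day 0. For RPS19 the day 9 range is 519 to 975, against 174 to 228 before induction. The brightest probe sets of these genes overlap between the days in DN-POLG cells. In NDI1/AOX cells the brightest ones also lie higher in every day 9 array, but by much less.

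In 143B cells most of the family had negative differences, rho0 minus rho+, and no gene passed. Of 54 genes 0 passed in limma (background 2.66% higher and 5.48% lower), 2 were lower at an unadjusted p below 0.05 and 1, RPS18, was called by an analysis of variance without moderation. The median log2 fold change was -0.26 with 11 genes positive and 43 negative, beside -0.01 over all genes and -0.05 over other probe sets of the brightest 2%. In 30 genes all rho0 arrays lay below all rho+ arrays (background 17.5%). With each array left out the median stayed between -0.32 and -0.20, but it was -0.0027 under quantile normalization and 0.05 where the arrays were set to one median, which moved the median of all genes to 0.29. Those 2 scalings also changed the split of all called genes: 32.7% were higher as deposited, 43.2% after quantile normalization and 71.8% with one median.

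RPL9, a large subunit protein, and RPS6 had the most negative differences. RPL9 had 12078, 12814 and 13229 in rho0 cells, against 18295, 19009 and 17851 in rho+ cells, a log2 fold change of -0.53 (SE 0.22, 95% interval -1.03 to -0.04, adjusted p = 0.157 in limma). RPS6 had 15242, 14984 and 16117 in rho0 cells, against 21146, 22573 and 22767 in rho+ cells, a log2 fold change of -0.52 (adjusted p = 0.165 in limma). The arrays of both genes were well apart with little spread, and neither passed over all probe sets. RPS23 had 18451, 18659 and 20274 in rho0 cells, against 22882, 25207 and 23266 in rho+ cells, again without overlap. RPS25 had 14993, 14154 and 15725 in rho0 cells, against 16480, 19950 and 17042 in rho+ cells.

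Positive differences in rho0 cells were led by RPL10L, with 119, 123 and 155 in rho0 cells, against 127, 66.5 and 63.0 in rho+ cells (0.70, adjusted p = 0.206 in limma). RPL18 had 5242, 6633 and 7234 in rho0 cells, against 5929, 3996 and 3777 in rho+ cells (0.50, adjusted p = 0.280 in limma). In both genes the groups overlapped through rho+ replicate 1. The small and the large subunit had medians of -0.27 and -0.25, and genes with and without a TOP tract had -0.27 and -0.26. The summed signal was 652875 ± 47963 in rho0 cells and 786482 ± 44077 in rho+ cells (SD, n = 3 each), a ratio of 0.830 (exact permutation test, p = 0.1, the smallest possible, 0.25 adjusted over 5 comparisons). The ACTB ratio of 5.53 to 8.12 in rho0 cells and 10.4 to 17.1 in rho+ cells moved with the groups, and its part in the result was not tested.

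Between the cell lines the levels are set side by side with no test, since line, RNA quality and culture cannot be told apart. In 143B rho+ cells against DN-POLG day 0, RPL29 differed by -3.18 on the log2 scale, RPS9 by -3.10, RPL18 by -2.90, RPS19 by -2.76 and RPS14 by -2.45. RPS9 had 4160, 2193 and 1973 in rho+ cells, against 19917, 22240 and 25661 at DN-POLG day 0. Among the lower genes tested RPL39L (-0.13) differed least, then RPL35A (-0.45) and RPL37 (-0.56), all of the large subunit. RPLP2 (5.92) and RPL27A (2.78) were far brighter in 143B cells on the single-symbol probe sets described above, RPLP2 with 21007, 21826 and 20529 in rho+ cells, against 303, 505 and 277 at DN-POLG day 0. The shared RPLP2 probe set read 19964 to 21109 in rho+ cells, against 37405 to 49584 at DN-POLG day 0, so the 2 probe sets of RPLP2 differed between the lines in opposite directions.

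The paralogs with restricted expression were compared with their partners. RPL39L, the testis-enriched copy of RPL39, had 1352, 1592 and 1483 at DN-POLG day 9, against 1144, 1602 and 890 at day 0 (0.32), beside 0.17 for RPL39, and 0.27 beside -0.38 in 143B rho0 cells. RPS27L had 0.25 at DN-POLG day 9 beside 0.29 for RPS27, 0.40 beside 0.34 in NDI1/AOX cells and 0.25 beside -0.16 in rho0 cells. RPL3 had 0.36, 0.33 and -0.19 in the same 3 comparisons, while RPL3L was too dim to test. In rho0 cells RPL10L, RPL39L and RPS27L all had positive values, none of which passed in limma. Without rho0 replicate 3 the values were 0.58 for RPL10L, -0.26 for RPL39L and -0.01 for RPS27L, so the sign of the last pair rested on that array. RPS27L had 2424, 2305 and 4102 in rho0 cells, against 1879, 3149 and 2299 in rho+ cells, which overlapped.

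A paralog outside the symbol rule did change. RPL22L1, a copy of the large subunit protein RPL22, had a mean signal of 4694 at DN-POLG day 9, against 2270 at day 0, a log2 fold change of 1.05 (SE 0.19, adjusted p = 0.00313 in limma). In NDI1/AOX cells the mean was 3663 at day 9, against 1885 at day 0 (0.96, adjusted p = 0.00419 in limma), and the difference was 1.09 without replicate 3 of day 9 (adjusted p = 0.00614 in limma). It was not called at day 3 (-0.02) or day 6 (0.27). Of 6 such ribosome-related genes tested, RPL22L1 was the only one called in HEK293 cells. In 143B rho0 cells RPL26L1, a copy of RPL26, rose by 1.07 and RPS19BP1, a nucleolar partner of RPS19, by 0.90 (adjusted p = 0.0395 and 0.0499 in limma). Both calls were near the threshold, and 2.66% of all genes were higher and 5.48% lower there.

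Genes that work with the ribosomal proteins were read from lists that were written with earlier results of these data known. Translation factors and other mRNAs known to carry TOP tracts, which share that control with ribosomal proteins, had 0 of 19 called at day 9 in either HEK293 model, beside 1.3% higher and 6.4% lower over all genes in DN-POLG cells. The NDI1/AOX background was 1.56% and 10.1%, and the same shares apply to the other lists. The median was 0.30 in both, with 18 and 19 genes positive in DN-POLG and NDI1/AOX cells, and quantile normalization put it at 0.11 and 0.06, with 18 and 14 positive. In the list of the mTOR pathway EIF4EBP1, the translational repressor that mTORC1 inactivates and an ATF4 target, rose by 1.32 at day 6 and 1.24 at day 9 of DN-POLG cells (adjusted p = 0.0263 and 0.00704 in limma), and in NDI1/AOX cells it had 0.67 (adjusted p = 0.108 in limma). TSC1, an inhibitor of mTORC1, fell by 1.01 in DN-POLG cells and by 1.21 in NDI1/AOX cells at day 9 (adjusted p = 0.0105 and 0.00246 in limma). RPS6KB1, a kinase of RPS6, fell by 0.98 in NDI1/AOX cells (adjusted p = 0.00539 in limma). Without replicate 3 of NDI1/AOX day 9 both kept their calls, TSC1 with -1.19 and RPS6KB1 with -0.99 (adjusted p = 0.0130 and 0.0216 in limma). The other genes of the list, 14 of 16 in each model, did not pass.

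Ribosome biogenesis, the nucleolar making of rRNA and its assembly with these proteins, had 1 gene of 38 higher and 1 lower at day 9 in each HEK293 model, the same pair. TAF1D, a subunit of the RNA polymerase I initiation factor, rose by 2.25 in DN-POLG and 2.02 in NDI1/AOX cells (adjusted p = 6.75e-04 and 0.00104 in limma), and POLR1C, a subunit of RNA polymerases I and III, fell by 0.68 and 0.63 (adjusted p = 0.0382 and 0.0407 in limma). The POLR1C calls were near the threshold and were lost in both models under quantile normalization (adjusted p = 0.0571 and 0.0719 in limma) and with arrays set to one median (0.0690 and 0.128). The 74 mitochondrial ribosomal protein genes had 0 calls in DN-POLG cells (median 0.11) and 1, MRPL16, lower by 0.99 in NDI1/AOX cells (adjusted p = 0.0219 in limma, list median 0.20). Among 13 genes of the 5S particle and p53 route 0 passed in DN-POLG cells, and SESN1, a p53 target, fell by 0.85 in NDI1/AOX cells (adjusted p = 0.0345 in limma). Without replicate 3 of NDI1/AOX day 9 TAF1D kept its call (2.28, adjusted p = 0.00164 in limma), while POLR1C (-0.53), MRPL16 (-0.91) and SESN1 (-0.90) did not pass (adjusted p = 0.170, 0.0873 and 0.0747 in limma).

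In 143B rho0 cells the other ribosome genes were set against the family. Of 38 ribosome biogenesis genes 5 were higher and 0 lower (median 0.83, 35 positive), among them NOP16, a 60S assembly factor, by 1.74, and the kinases RIOK1 by 1.25 and RIOK2 by 1.16 of late 40S assembly (adjusted p = 0.0186, 0.0305 and 0.0222 in limma). Of 73 mitochondrial ribosomal protein genes 6 were higher and 0 lower (median 0.44, 65 positive), led by MRPL15 with 1.31 (adjusted p = 0.0184 in limma). Over all genes 2.66% were higher and 5.48% lower. The counts moved with the scaling: quantile normalization gave 8 higher and 1 lower in ribosome biogenesis and 8 higher in the mitochondrial list, and one median gave 15 and 24 higher. The cytosolic family, with a median of -0.26 and 0 calls, stood below both lists on the same arrays. Under quantile normalization the 3 medians were 0.79, 0.45 and -0.0027, in the same order. With the arrays set to one median they were 1.13, 0.75 and 0.05. That scaling shifts all genes of an array alike, so it could not change the order of the lists. The TOP translation factors had a median of -0.05 with 1 of 19 called, EIF3K, higher by 1.48 (adjusted p = 0.0283 in limma). In the p53 list CDKN1A fell by 1.74 and SESN2 by 1.46, and BRIX1, a 60S assembly factor, rose by 0.89 (adjusted p = 0.0471, 0.0409 and 0.0486 in limma).

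**Figure D5:**
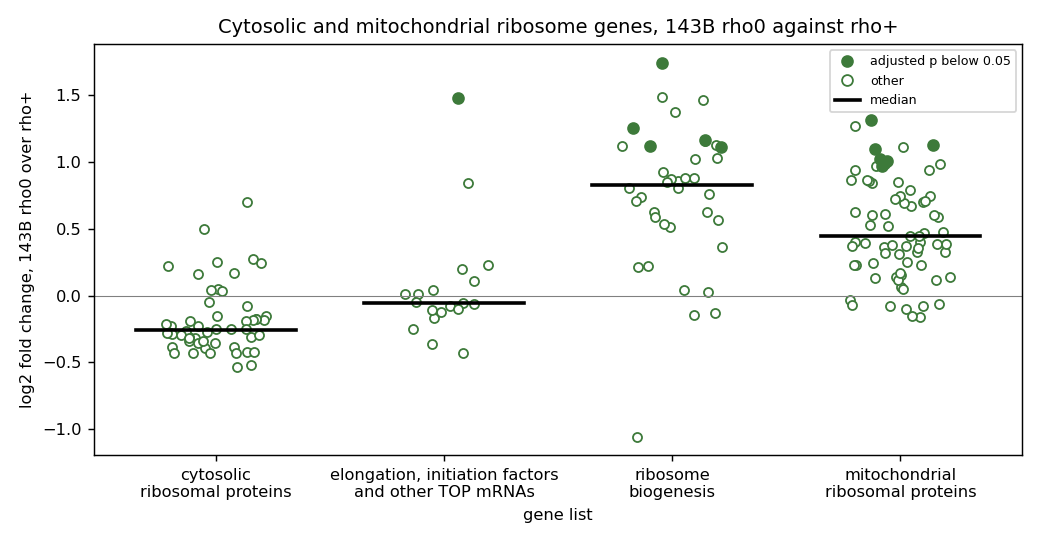
Log2 fold change, 143B rho0 over rho+, of each gene in 4 lists, with genes at an adjusted p below 0.05 in limma filled, others open, and the median of each list as a bar. The medians are -0.26 for cytosolic ribosomal proteins, -0.05 for TOP translation factors, 0.83 for ribosome biogenesis and 0.44 for mitochondrial ribosomal proteins.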

How the data were processed

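RNA of 24 cultures was labelled from 100 ng with a 3′ IVT kit and hybridised to Affymetrix HG-U133 Plus 2.0 arrays. The authors made the signal intensity values with MAS5 in Expression Console and deposited them on a linear scale, and each array has a trimmed mean of 500.1 with the outer 2% left out. Log2 was taken with nothing added, and no further normalization was applied. Of 54675 probe sets 41097 carry 1 gene symbol. Tested were those whose mean log2 signal reached the median of their cell line's arrays, which corresponds to 57.2 for HEK293 (23132 probe sets) and 83.3 for 143B (22786).

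Adjusted p-values come from limma 3.58.1 in R 4.3.3 (moderated linear model, Benjamini-Hochberg over all tested probe sets, threshold 0.05), with 18 HEK293 arrays in 1 model of 6 group means and 6 143B arrays in another. The code was tested on simulated data. The number of arrays, 3 per group, limits the precision. A gene is called by its brightest probe set, and groups do not overlap where every array of one lies beyond every array of the other. Named are the largest changes in each comparison, the paralogs with their partners, genes of the stalk, 5S particle, exit tunnel and decoding head, the 3 brightest and 3 dimmest, and called genes of the other lists. Members and lists were chosen with earlier results of these data known. Cultures of 1 round came from 1 starter culture. Deviations of same-numbered arrays from their group means correlated for DN-POLG day 0 with day 3 (0.32 to 0.51) and with day 6 (0.17 to 0.21). They did not for day 9 (-0.32 to 0.04), for NDI1/AOX cells (-0.04 to 0.07) or for 143B cells (-0.18 to 0.07). The methods used an analysis of variance, run here as an alternative beside other scalings, filters, probe set choices, weights, a replicate block and each array left out.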

Additional observations from a re-analysis of the deposited data

Results flagged for a closer look

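In 27 genes of the family every NDI1/AOX day 9 array lay above every day 0 array while every 143B rho0 array lay below every rho+ array. They are among the 48 genes higher without overlap in NDI1/AOX cells and the 30 lower without overlap in 143B cells. Of the 10258 genes tested in both lines 266 (2.59%) did so, and of the family 27 of 54 (50%). For DN-POLG day 9 and 143B rho0 cells 1 gene of the family, RPS25, did so (1.85%, beside 1.1% of all genes). The difference between the cell models was not tested, since the lines were fitted apart. Quantile normalization put the median of the family at 0.02 in NDI1/AOX cells and -0.0027 in rho0 cells.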

How the results depend on the processing

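The count of ribosomal protein genes called, 0 in each of the 8 comparisons, stayed at 0 in all of them under quantile normalization, arrays set to one median, no signal filter, the stricter filter and the replicate block (0 in each). Without probe sets ending in x or s 28 genes were tested in HEK293 and 27 in 143B cells. The count was then 4 in DN-POLG cells and 2 in NDI1/AOX cells at day 9, all higher, and 1, lower, in 143B cells. All were called through the dimmer probe sets, and of all genes 1.97% and 2.33% were higher and 6.1% lower in these comparisons. With the mean of a gene's probe sets it was 4 in DN-POLG and 5 in NDI1/AOX cells at day 9, all higher (1.65% and 2.38% of all genes). With only the arrays compared it was 14 in NDI1/AOX cells, 13 higher and 1 lower (12.4% and 20.9% of all genes). Under analysis of variance without moderation 1 was higher there (2.14%) and 1 lower in 143B cells (0.312%). With array weights 3 were higher in DN-POLG cells at day 9 (7.83%). In NDI1/AOX cells 15 were then called, 12 higher and 3 lower (17.2% and 25.5%). Array weights also gave 2 lower in 143B cells (20.8%) and 2 lower between the models at day 9 (0.232%). Arrays set to one median of the family, an alternative chosen after seeing the data, gave 2, RPLP2 and RPL27A in NDI1/AOX cells. Both were lower, as were 9.41% of all genes. With each array left out in turn the count ranged from 0 to 2 in NDI1/AOX cells and between the models at day 9, the 2 without NDI1/AOX day 9 replicate 2, and was 0 elsewhere. Without that array 7.41% and 0.132% of all genes were lower in these 2 comparisons. MRPL20, higher by 0.97 in rho0 cells, was -0.20 without probe sets ending in x or s, where another probe set stands for it. The share of higher among all called genes was 17.1% at DN-POLG day 6, 16.9% at day 9 and 13.3% in NDI1/AOX cells, 34.2%, 22.9% and 23.0% after quantile normalization, and 58.3%, 22.5% and 29.7% with one median. Probe sets sharing several genes and groups of 3 arrays limit what could be resolved. Of the 15 dimmer probe set calls at day 9, 8 in DN-POLG and 7 in NDI1/AOX cells, all 15 held under quantile normalization, one median and array weights, 14 with the replicate block (RPL7 lost), 12 under analysis of variance (RPL31 in both models and RPL7 lost) and 11 with no signal filter (RPL31 in both, RPL7 and RPL37A lost). With only the arrays compared 10 held (RPS24, RPL31, RPL7 and both of RPS14 lost in DN-POLG cells) and with one family median 9 (RPS24, RPL31, RPL7 and 1 of RPS14 lost in DN-POLG cells, RPL37A and RPL31 in NDI1/AOX cells). With each array left out 6 to 7 of 8 and 5 to 7 of 7 held.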
